A study of Homo sapiens with 18 samples.

Results

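The cyclin-dependent kinase (CDK) inhibitor genes and MTAP, which lies beside CDKN2A at chromosome 9p21, were followed through the RNA sequencing of MM1R and MM1S cells. The 8 genes were chosen by symbol from the 43735 genes of the count table. They are the INK4 genes CDKN2A, CDKN2B, CDKN2C and CDKN2D, the CIP/KIP genes CDKN1A, CDKN1B and CDKN1C, and MTAP. All 8 were in the table. CDKN2A was part of the choice because of its large difference between the untreated lines, so the levels of the untreated lines are described here without a test.

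MM1R and MM1S are human multiple myeloma cell lines of the same origin that differ in their response to glucocorticoids, MM1S being sensitive and MM1R resistant. Cells of each line were left untreated, received 5 µM RSL3 for 3 h, or received 2 µM ferrostatin-1 (Fer-1) for 2 h before the RSL3. RSL3 inhibits the lipid peroxide reductase GPX4 and induces ferroptosis, an iron-dependent form of cell death, and Fer-1 is an antioxidant that blocks it. Each of the 6 groups held 3 libraries, 1 from each of 3 passages: 4, 6 and 7 for MM1R, and 16, 22 and 23 for MM1S. Since the lines shared no passage, line and passage number cannot be told apart, and each line stands for 1 cell line only.

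CDK inhibitors hold cells before DNA replication. INK4 proteins bind CDK4 and CDK6 and keep cyclin D from activating them, whereas CIP/KIP proteins bind cyclin-CDK complexes more broadly, including those of CDK2. CDKN2A encodes the INK4 protein p16 and, from a separate first exon and in another reading frame, the protein ARF, which binds MDM2 and so stabilizes p53. CDKN2B encodes p15, CDKN2C p18 and CDKN2D p19. CDKN1A encodes p21, a classic target of p53, while CDKN1B encodes p27 and CDKN1C the imprinted gene product p57. MTAP salvages methionine and adenine from the polyamine by-product methylthioadenosine and is often co-deleted with CDKN2A in tumours. In myeloma, loss of CDKN2C and silencing of CDKN2A or CDKN2B by promoter methylation are well known.

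CDKN2A, CDKN2B and MTAP are neighbours in hg19. MTAP runs on the plus strand (chr9:21802635-21937650), whereas CDKN2A (chr9:21967751-21995300) and CDKN2B (chr9:22002902-22009304) run on the minus strand. The 250 bases before their RefSeq starts are shown because the promoters of CDKN2A and CDKN2B belong to the genes that were near 0 in MM1S cells and that of MTAP to the neighbour that was expressed in both lines. Sequences are from RefSeq (GRCh38.p14), hg19 positions are from an exact match to that build, and capitals mark the GC box GGGCGG or its complement CCGCCC.
CDKN2A, start nearer MTAP (chr9:21974857-21975106, minus strand): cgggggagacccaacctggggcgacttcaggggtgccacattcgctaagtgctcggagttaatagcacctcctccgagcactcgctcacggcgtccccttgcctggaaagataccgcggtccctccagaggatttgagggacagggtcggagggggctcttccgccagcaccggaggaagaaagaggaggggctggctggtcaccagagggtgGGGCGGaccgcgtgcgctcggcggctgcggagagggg
CDKN2A, start nearer CDKN2B (chr9:21995324-21995573, minus strand): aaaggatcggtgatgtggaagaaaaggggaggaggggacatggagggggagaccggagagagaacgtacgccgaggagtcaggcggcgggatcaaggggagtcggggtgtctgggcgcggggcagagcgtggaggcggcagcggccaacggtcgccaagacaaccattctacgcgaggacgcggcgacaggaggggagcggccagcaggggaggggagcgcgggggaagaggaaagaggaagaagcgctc
CDKN2B (chr9:22009305-22009554, minus strand): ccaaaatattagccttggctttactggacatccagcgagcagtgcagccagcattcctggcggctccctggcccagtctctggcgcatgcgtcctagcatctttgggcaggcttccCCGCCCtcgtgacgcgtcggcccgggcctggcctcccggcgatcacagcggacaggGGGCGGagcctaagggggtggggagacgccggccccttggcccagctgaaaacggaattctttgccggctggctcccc
MTAP (chr9:21802385-21802634, plus strand): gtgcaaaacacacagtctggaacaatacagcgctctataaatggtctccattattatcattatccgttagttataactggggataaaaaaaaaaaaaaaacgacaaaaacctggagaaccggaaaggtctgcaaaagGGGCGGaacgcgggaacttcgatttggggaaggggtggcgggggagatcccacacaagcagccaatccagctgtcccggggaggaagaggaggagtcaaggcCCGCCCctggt
The CDKN2A windows held 20 and 24 CpG dinucleotides, the CDKN2B window 18 and the MTAP window 11, next to a median of 11 over 35116 RefSeq windows of the same length. They held 1 and 0 GC boxes for CDKN2A, 2 for CDKN2B and 2 for MTAP. Of all windows, 42.6% held at least 1 GC box on either strand. The counts are per gene, so transcripts from the separate starts of CDKN2A could not be told apart, nor could p16 and ARF.

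The libraries held 17635438 to 19368343 counted reads, and values are given as CPM, read counts scaled to a common library size with TMM factors. Of the plasma cell and myeloma markers, 10 of the 11 in the table were over 1 CPM in every library, the exception being CD27. Markers of other cell types summed to 27.3 to 47.0 CPM against 9729 to 19079 CPM for the myeloma markers, of which JCHAIN alone gave 4808 to 12657 CPM. Of the 12 markers of other cell types, 7 stayed under 1 CPM throughout. CD3E (3.26 to 11.5 CPM), PECAM1 (9.79 to 24.9) and HBB (3.40 to 12.7) were over 1 CPM in every library. EPCAM and COL1A1 were over it in some, at up to 1.51 and 19.5 CPM. Among the MM1R libraries, that labelled Fer-1 + RSL3 replicate 2 stood apart in genes that differ between the lines. For genes that differ between the lines, the height above the mean of the lower line was taken, in percent of the distance between the means. In it, 10 genes that were at least 8-fold higher in MM1S than in MM1R libraries had a median of 48.5% on this scale, next to -0.636% to 3.19% in the 8 other MM1R libraries. Conversely, 21 genes at least 8-fold higher in MM1R had a median of 44.9%, next to 85.6% to 112% in the 8 others. Fitted differences of CDKN2A, CDKN2B and CDKN2B-AS1 that use this library are therefore also given without it. For comparisons that use it, the share of all genes called by edgeR is given without it at its first mention, where it moved. Among MM1S libraries, RSL3 replicate 1 (passage 16) differed widely from replicates 2 and 3 of its group. The chi-square per degree of freedom, a measure of spread beyond counting noise, was 147 and 171 against them and 8.26 between them. In the other groups it was at most 52.2. Values of MM1S cells under RSL3 include this library unless stated.

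Per kilobase of the main annotated transcript, the untreated MM1R level was highest for CDKN1A (132 ± 28.3 CPM per kb, SD, n = 3), followed by CDKN2A (82.5 ± 24.2), CDKN1B (34.9 ± 2.47), MTAP (8.27 ± 0.544), CDKN2D (5.56 ± 0.289) and CDKN2B (0.855 ± 0.0941). Only CDKN1A and CDKN2A overlapped in mean ± SD among these neighbours. Untreated MM1S cells had CDKN1B (44.1 ± 2.90 CPM per kb) and CDKN1A (41.6 ± 18.8) at the top, whose levels did not differ beyond their spread. MTAP (10.6 ± 0.261) and CDKN2D (6.81 ± 2.48) followed, while CDKN2A (0.121 ± 0.129) and CDKN1C (0.116 ± 0.0270) were near 0 and overlapped, CDKN2B, with 1 read, stood at 0.00452 ± 0.00783, and CDKN2C had no read. The MM1R order of the means was the same under both treatments. There, MTAP and CDKN2D overlapped in mean ± SD in each treatment (7.19 ± 1.15 and 6.86 ± 1.17 CPM per kb under RSL3, 7.55 ± 0.681 and 6.59 ± 1.35 under Fer-1 + RSL3), as did CDKN2A and CDKN1B under Fer-1 + RSL3 (58.9 ± 22.9 and 42.9 ± 1.97). In MM1S cells CDKN1A stood above CDKN1B in mean under RSL3 (78.4 ± 32.1 against 45.9 ± 0.401 CPM per kb) and under Fer-1 + RSL3 (50.9 ± 18.4 against 44.8 ± 2.71), with overlapping mean ± SD in each.

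**Figure D1:**
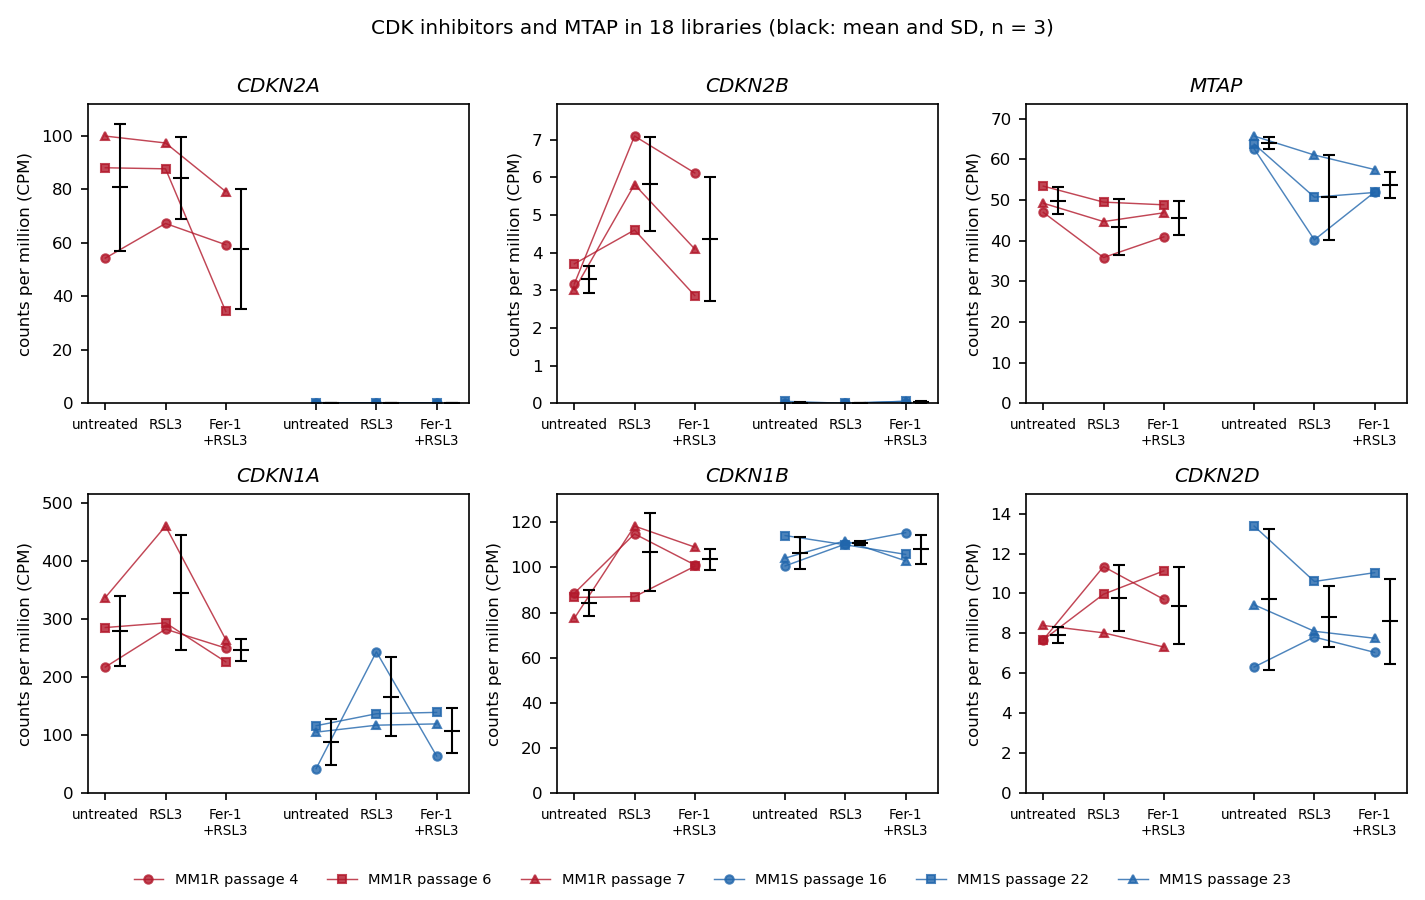
CPM (linear axis from 0) of CDKN2A, CDKN2B, MTAP, CDKN1A, CDKN1B and CDKN2D in each of the 18 libraries, by group, with lines joining libraries of 1 passage and black marks for the mean and SD (n = 3). CDKN2A and CDKN2B lie at the bottom of the axis in all 9 MM1S libraries, and the largest CDKN1A step is at MM1S passage 16, from 42.4 to 244 CPM.

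CDKN2A separated the lines in every treatment. In untreated MM1R cells it read 54.2, 88.0 and 99.9 CPM at passages 4, 6 and 7. Under RSL3 the same passages gave 67.2, 87.6 and 97.3 CPM, and under Fer-1 + RSL3 59.3, 34.3 and 79.1 CPM. The 9 MM1S libraries held 20 CDKN2A reads in all, against 12240 in MM1R cells. By passage 16, 22 and 23, these were 0, 2 and 5 reads in untreated MM1S cells, 0, 4 and 3 under RSL3 and 0, 4 and 2 under Fer-1 + RSL3. The lowest MM1R library thus read 34.3 CPM and the highest MM1S library 0.251 CPM.

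The ratio of MM1R to MM1S in CDKN2A was 666 in untreated cells, with a 95% interval of 323 to 1658 that covers counting error only. In that contrast 10.5% of all genes passed the threshold, and nothing is read from it because it chose the gene. The values of treated cells were not part of the rule, although they came from the same passages and the genes were chosen with earlier results of these data known. In them the ratio was 631 (306 to 1571) under RSL3 and 540 (248 to 1474) under Fer-1 + RSL3. The fitted log2 difference was 9.24 under RSL3 (SE 0.55, FDR = 3.59e-08) and 8.996 under Fer-1 + RSL3 (SE 0.56, FDR = 7.3e-08). Without the MM1R library that stood apart, CDKN2A differed by 9.26 under Fer-1 + RSL3 (FDR = 1.93e-08). The value depended most on MM1S Fer-1 + RSL3 replicate 2, which holds 4 of the 6 MM1S reads of CDKN2A in that group, and was 9.93 without it.

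CDKN2B followed the same division at a much lower level. It read 3.17, 3.70 and 3.01 CPM in untreated MM1R cells at passages 4, 6 and 7, 7.10, 4.60 and 5.81 CPM under RSL3, and 6.12, 2.86 and 4.10 CPM under Fer-1 + RSL3. All MM1S libraries together held 3 reads, against 751 in MM1R cells, so no MM1S library overlapped with MM1R cells. The 3 MM1S RSL3 libraries held no CDKN2B read. Taking 3 reads over the group as the limit of detection, MM1R cells under RSL3 stood 102.65-fold above that limit. The exact 95% lower limit of the CDKN2B ratio was 83.0. The edgeR test of the fitted difference gave FDR = 1.47e-06, and its size is not given because the MM1S group had no read. Under Fer-1 + RSL3 the ratio was 124 (34.0 to 1030, counting error only) and the fitted log2 difference of CDKN2B was 6.70 (SE 0.56, FDR = 7.35e-06), or 6.93 (FDR = 3.64e-06) without the library that stood apart. In untreated cells the ratio was 193 (34.1 to 7647), which rests on 1 MM1S read.

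CDKN2A and CDKN2B were the members called between the lines, 2 of the 6 tested in each treatment. Of all 14281 genes tested, 9.17% were called between the lines under RSL3 (5.17% higher in MM1R cells) and 2.94% under Fer-1 + RSL3 (2.09% higher in MM1R cells), or 4.82% without the MM1R library that stood apart. Both genes passed the filter on low counts only through MM1R cells, so that a call was to be expected of any such gene with MM1S counts near 0.

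MTAP, whose end lies 30.1 kb from that of CDKN2A, did not share the division. It read 47.0, 53.4 and 49.2 CPM in untreated MM1R cells and 62.6, 63.8 and 65.8 CPM in untreated MM1S cells, with no overlap and the higher values in MM1S cells. Under RSL3 the MTAP values overlapped, at 35.9, 49.5 and 44.7 CPM in MM1R and 40.2, 50.7 and 61.1 CPM in MM1S cells (log2 difference -0.23, SE 0.14, FDR = 0.356). Under Fer-1 + RSL3 MM1R cells read 41.0, 48.8 and 46.9 CPM and MM1S cells 52.0, 51.9 and 57.5 CPM of MTAP, without overlap but also without a call (-0.24, SE 0.14, FDR = 0.453).

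CDKN2B-AS1 is the long noncoding RNA also known as ANRIL, which is transcribed on the plus strand from a start 1.16 kb inside CDKN2A and runs across all of CDKN2B. Its MM1R libraries read 1.25 to 2.29 CPM and its MM1S libraries 0 to 0.155 CPM. The log2 difference of CDKN2B-AS1 was 5.07 under RSL3 (SE 0.69, FDR = 0.000288) and 5.50 under Fer-1 + RSL3 (SE 0.67, FDR = 0.000218), or 5.72 (FDR = 0.000108) without the library that stood apart. Like CDKN2A and CDKN2B, CDKN2B-AS1 passed the filter through MM1R cells alone, so that the same limit holds for its calls. The ratio was 39.7 (13.2 to 195) in untreated cells, 39.6 (10.6 to 332) under RSL3 and 53.4 (14.4 to 446) under Fer-1 + RSL3. Whether the counting used strand is not given in the sources used here, so reads of CDKN2B and of CDKN2B-AS1 in their shared bases cannot be told apart. The same holds for CDKN1B and GPR19 on its opposite strand, which had at most 94 reads in a library.

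Beyond these genes the region showed small differences in both directions. Of 46 genes in the table within 3 Mb of CDKN2A, 19 were at 0 in every library and 14 exceeded 1 CPM in a group, among them CDKN2A, CDKN2B and MTAP. The 11 others, CDKN2B-AS1 among them, were tested. Of these, 1 was called higher and 2 lower in MM1R cells under RSL3, where 9.17% of all genes were called. Under Fer-1 + RSL3, where 2.94% were called (4.82% without the MM1R library that stood apart), 2 were higher and 1 lower. Under RSL3, DMRTA1, a DMRT family gene 452 kb beyond CDKN2A, was lower in MM1R cells (log2 difference -0.72, SE 0.17, FDR = 0.0127), as was PLIN2, a lipid droplet coat protein gene (-0.59, SE 0.12, FDR = 0.00476). PLIN2 was also lower under Fer-1 + RSL3 (-0.52, FDR = 0.0209), where DMRTA1 missed the threshold (-0.60, FDR = 0.0644) and FOCAD, which encodes focadhesin, was higher (0.39, FDR = 0.0383). The remaining genes over 1 CPM were RRAGA, HAUS6, DENND4C, RPS6, ACER2, MLLT3 and KLHL9, with log2 differences of -0.28 to 0.40 under RSL3 and -0.12 to 0.25 under Fer-1 + RSL3 and no call in either.

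**Figure D2:**
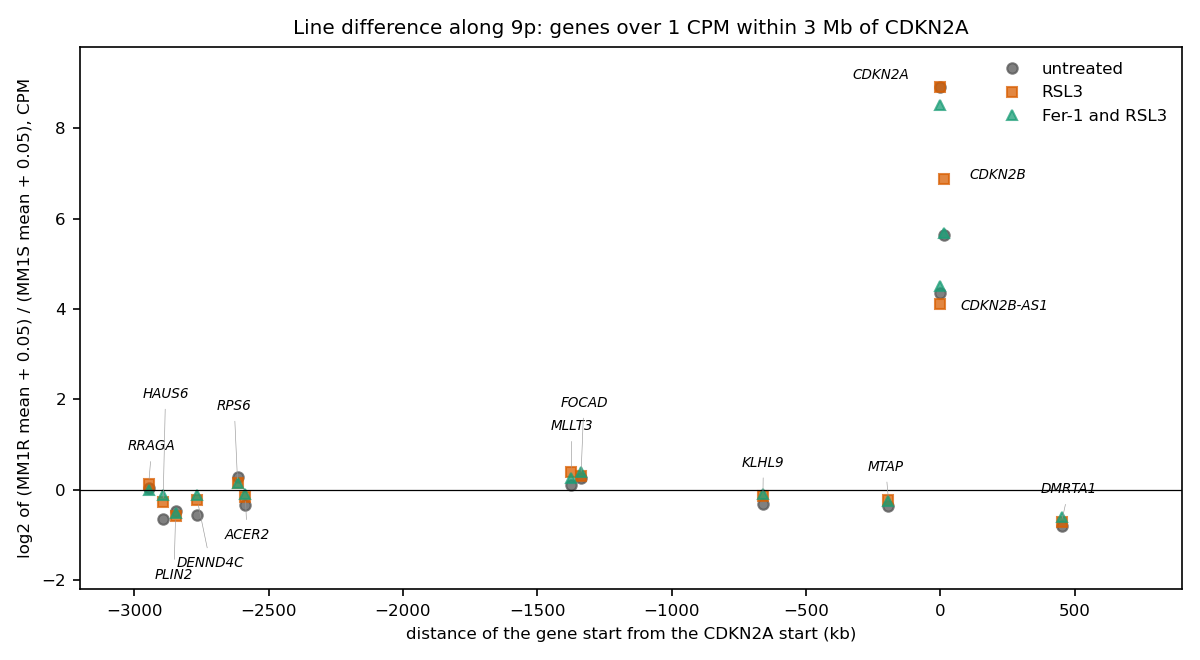
Log2 ratio of the MM1R to the MM1S mean CPM (0.05 CPM added to each) against the distance in kb from the CDKN2A start, for the 14 genes over 1 CPM within 3 Mb and each of the 3 treatments. CDKN2A, CDKN2B and CDKN2B-AS1 stand above the line at 0, whereas MTAP and DMRTA1 on either side of them lie just below it.

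Within MM1R cells CDKN2A varied between passages. Passage 4 gave 54.2 and 67.2 CPM of CDKN2A in the untreated and RSL3 libraries, passage 6 gave 88.0 and 87.6 CPM, and passage 7 gave 99.9 and 97.3 CPM. Other genes with a high MM1R level varied in the same way. Over the 20 to 21 such genes chosen without the library in question, the untreated library had a median of 88.1% at passage 4, 106% at passage 6 and 112% at passage 7. These are percent of the MM1R mean above the MM1S mean. The library labelled Fer-1 + RSL3 replicate 2 was lowest in both, with CDKN2A at 49.6% of the mean of the other 2 libraries of its group. CDKN2B stood at 56.0% of that mean there, while MTAP stood at 111%, CDKN1A at 87.9% and CDKN1B at 95.7%.

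**Figure D3:**
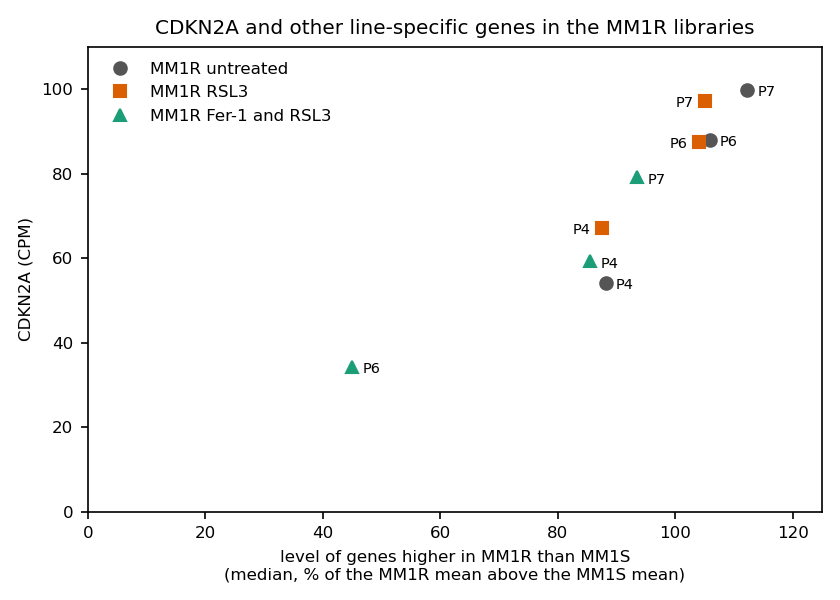
CDKN2A CPM in the 9 MM1R libraries against the median level of genes at least 8-fold higher in MM1R than in MM1S cells, in percent of the MM1R mean above the MM1S mean, with P4, P6 and P7 for the passages. The Fer-1 + RSL3 library of passage 6 lies apart at 44.9% and 34.3 CPM, and the passage 4 libraries lie below the others of passages 6 and 7.

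With RSL3 no inhibitor passed the threshold in either line in the fit without a passage block. In MM1R cells 0 of 6 members were called against 3.36% of all genes, and in MM1S cells 0 of 6 against 3.67%, by edgeR. At an unadjusted p under 0.05 there were 2 in each line, CDKN1B and CDKN2B in MM1R (18.5% of all genes) and CDKN1A and MTAP in MM1S cells (19.5%). DESeq2 called 1 in MM1R (CDKN1B) and 0 in MM1S cells, and limma on the normalized values called 0 in both. Over all genes, edgeR fitted on only the groups compared called 3.83% in MM1R but 0.0228% in MM1S cells. The MM1S calls of other genes with RSL3 given below come from the fit of all 6 groups. With the passage as a block 1 of 6 was called in MM1R (CDKN1B, against 13.1% of all genes) and 1 of 6 in MM1S cells (MTAP, against 13.3%). Averaged over the lines, where 15.5% of all genes were called, edgeR, DESeq2 and limma called 0 of 6, with 3 at an unadjusted p under 0.05 (CDKN1A, CDKN1B and MTAP, against 30.2% of all genes), and the block called MTAP against 30.4% of all genes.

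CDKN1A, the p53 target p21, was higher with RSL3 than without in each of the 6 passages, but by very unequal amounts. In MM1R cells it read 217, 285 and 337 CPM untreated and 282, 293 and 460 CPM under RSL3 at passages 4, 6 and 7. In MM1S cells CDKN1A read 42.4, 116 and 105 CPM untreated and 244, 137 and 117 CPM under RSL3 at passages 16, 22 and 23. The passage 16 pair gave a log2 change of 2.52 in CDKN1A, from the lowest untreated to the highest RSL3 value of the line, and the other 5 pairs gave 0.04 to 0.45. HMOX1, an oxidative stress gene looked up for this comparison after its values were seen, also had its largest RSL3 change at passage 16 (7.76, next to 5.09 and 5.04 at passages 22 and 23 and 3.77 to 5.79 in MM1R cells). Its part in the CDKN1A difference was not tested.

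The fitted log2 change of CDKN1A with RSL3 was 0.30 in MM1R (SE 0.35, FDR = 0.720) and 0.91 in MM1S cells (SE 0.35, FDR = 0.165). Without MM1S RSL3 replicate 1, the passage 16 library, CDKN1A in MM1S cells changed by 0.53 (FDR = 0.604). The difference between the lines in the RSL3 response of CDKN1A was -0.61 (SE 0.50, FDR = 1.00). In that test edgeR, DESeq2 and limma called 0 members against 0% of all genes, with 0 members and 1.55% of all genes at an unadjusted p under 0.05. With no filter on low counts, where 4.36% of all genes were called for RSL3 in MM1S cells, CDKN1A was called there (0.89, FDR = 1.88e-06). The reason for this call was not tested.

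Between the lines CDKN1A was higher in MM1R cells in each treatment. The MM1R untreated libraries of CDKN1A (217 to 337 CPM) lay above the MM1S untreated libraries (42.4 to 116 CPM), and likewise for RSL3 (282 to 460 against 117 to 244 CPM) and Fer-1 + RSL3 (226 to 265 against 64.2 to 139 CPM), without overlap. The log2 difference was 1.06 under RSL3 (SE 0.35, FDR = 0.0714) and 1.20 under Fer-1 + RSL3 (SE 0.36, FDR = 0.0830), each short of the threshold. DESeq2 called CDKN1A in both treatments (FDR = 0.0244 and 0.0194). Without MM1S RSL3 replicate 1 it was called too (1.46, FDR = 0.0188, and 1.20, FDR = 0.0419), as it was without MM1S untreated replicate 1 (1.06, FDR = 0.0309, and 1.20, FDR = 0.0344). In the other direction, the CDKN1A difference fell to 0.82 under RSL3 without MM1R RSL3 replicate 3. Under Fer-1 + RSL3 it fell to 0.93 without MM1S Fer-1 + RSL3 replicate 1. Over all fits without 1 library the FDR reached 0.223 and 0.233.

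CDKN1B, which encodes p27, stayed within a narrow range. It read 88.5, 86.7 and 77.4 CPM in untreated MM1R cells and 115, 87.0 and 118 CPM under RSL3, so that the passage 6 value alone did not move. The log2 change of CDKN1B in MM1R cells was 0.34 (SE 0.11, FDR = 0.0968). It was called with the passage as a block (0.33, FDR = 0.0485), by DESeq2 (0.34, FDR = 0.0498) and without MM1R RSL3 replicate 2 (0.47, FDR = 0.0215). The CDKN1B change shrank to 0.27 without MM1R RSL3 replicate 3, and over all fits without 1 library the FDR reached 0.319. In MM1S cells CDKN1B read 101, 114 and 104 CPM untreated and 110, 110 and 112 CPM under RSL3 (log2 change 0.06, SE 0.11, FDR = 0.822). The untreated MM1R values of CDKN1B (77.4 to 88.5 CPM) all lay below the untreated MM1S values (101 to 114 CPM). The lines were not called apart in CDKN1B under RSL3 (-0.05, FDR = 0.823) or under Fer-1 + RSL3 (-0.06, FDR = 0.858).

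MTAP was lower with RSL3 in each of the 6 passages, by 0.11 to 0.64 on the log2 scale. The fitted change of MTAP was -0.20 in MM1R (SE 0.14, FDR = 0.488) and -0.34 in MM1S cells (SE 0.14, FDR = 0.195). Averaged over the lines it was -0.27 (SE 0.10, FDR = 0.0745). With the passage as a block MTAP was called in MM1S cells (-0.35, FDR = 0.0342) and averaged over the lines (-0.28, FDR = 0.00900). Leaving out MM1S RSL3 replicate 3 gave MTAP a call in MM1S cells (-0.50, FDR = 0.0498) and averaged over the lines (-0.35, FDR = 0.0203), and leaving out MM1R RSL3 replicate 2 gave it a call in the average (-0.32, FDR = 0.0490). In the other direction, the MTAP change shrank to -0.19 in MM1S cells (FDR = 0.626) without MM1S RSL3 replicate 1 and to -0.08 in MM1R cells without MM1R RSL3 replicate 1.

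In MM1R cells CDKN2B was higher under RSL3 than untreated in all 3 passages, from 3.17, 3.70 and 3.01 to 7.10, 4.60 and 5.81 CPM, without overlap (log2 change 0.82, SE 0.32, FDR = 0.183). CDKN2A did not move in a common direction there (0.06, SE 0.31, FDR = 0.953). CDKN2D, which encodes p19, read 7.69, 7.68 and 8.40 CPM in untreated MM1R cells and 11.3, 9.97 and 8.03 CPM under RSL3 (0.30, SE 0.25, FDR = 0.575). In MM1S cells CDKN2D read 6.32, 13.4 and 9.44 CPM untreated and 7.82, 10.6 and 8.11 CPM under RSL3 (-0.13, SE 0.25, FDR = 0.825), again with overlap.

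CDKN1C and CDKN2C did not pass the filter on low counts with all 18 libraries and were not tested. CDKN1C had 29 reads over the 9 MM1R libraries and 50 over the 9 MM1S libraries. RSL3 libraries held 10, 5 and 3 CDKN1C reads in MM1R and 14, 7 and 2 in MM1S cells, next to 2 in each untreated MM1R library and 3, 4 and 5 in untreated MM1S cells. The MM1R values did not overlap and the MM1S values did. CDKN2C had no read in any of the 18 libraries, and a count of 0 allows up to 3 reads, or 0.151 to 0.197 CPM, in a library. Its neighbour FAF1, which lies 477 bases from CDKN2C on the opposite strand and is named here after its values were seen, read 1.35 to 2.71 CPM in MM1R and 0.524 to 1.19 CPM in MM1S cells, and under RSL3 FAF1 was called higher in MM1R cells (log2 difference 1.48, FDR = 0.0198). EPS15, further along the chromosome, read 86.9 to 136 CPM over all libraries. Gene counts cannot tell deletion of CDKN2C from lack of transcription.

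**Figure D4:**
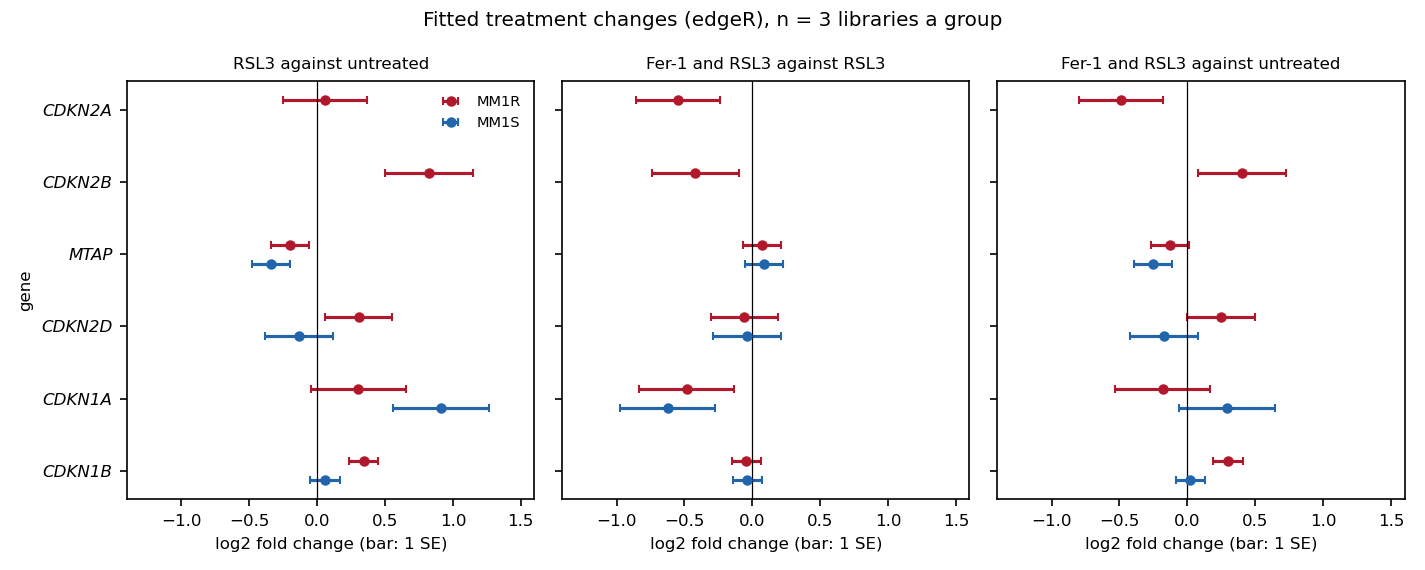
Log2 fold changes (points) with 1 SE (bars) from the edgeR fit for 3 comparisons of treatments, in MM1R and MM1S cells with 3 libraries a group. CDKN2A and CDKN2B have no MM1S point because they had at most 5 reads in an MM1S library. The points furthest above 0 for RSL3 are CDKN1A in MM1S (0.91) and CDKN2B in MM1R cells (0.82).

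Fer-1 before RSL3 brought no member past the threshold. Against RSL3 alone edgeR called 0 members in either line, with 0 at an unadjusted p under 0.05 in each (6.17% of all genes in MM1R and 5.75% in MM1S cells), and neither DESeq2 nor limma called any. In that comparison edgeR without a block called no gene at all within a line (0%) and 0.119% averaged over the lines, with 12.8% at an unadjusted p under 0.05. Without the library that stood apart 0.0273% of all genes were called in the average. Over all genes the passage block called 25 in MM1R and 8 in MM1S cells, and DESeq2 38 and 6, none of them a member. CDKN1A read 250, 226 and 265 CPM in MM1R cells given Fer-1 + RSL3, at each passage below its RSL3 value (log2 change -0.48, SE 0.35, FDR = 0.879). In MM1S cells CDKN1A read 64.2, 139 and 119 CPM with Fer-1 + RSL3, below the RSL3 value at passage 16 and slightly above it at passages 22 and 23 (-0.62, SE 0.35, FDR = 0.880). Averaged over the lines the change of CDKN1A was -0.55 (SE 0.25, unadjusted p = 0.0400, FDR = 0.365). With no filter on low counts CDKN1A was called in MM1S cells (-0.60, FDR = 0.0167) and averaged over the lines (-0.55, FDR = 9.92e-05).

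CDKN2A and CDKN2B of MM1R cells were also lower with Fer-1 + RSL3 than with RSL3 alone in all 3 passages, by 0.18 to 1.35 on the log2 scale for CDKN2A and by 0.21 to 0.69 for CDKN2B. The fitted CDKN2A change was -0.55 (SE 0.31, FDR = 0.839), and -0.28 without the library that stood apart. For CDKN2B it was -0.42 (SE 0.32, FDR = 0.889), and -0.19 without that library. MTAP, CDKN1B and CDKN2D changed by -0.06 to 0.08 in both lines.

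Against untreated cells, Fer-1 + RSL3 gave 0 of 6 calls in MM1R cells, where 9.22% of all genes were called (4.65% without the library that stood apart), and 0 of 6 in MM1S cells, where 4.61% were. DESeq2 and limma called 0 in each, and CDKN1B alone had an unadjusted p under 0.05 (24.6% of all genes in MM1R and 18.8% in MM1S cells), in MM1R cells (0.30, SE 0.11, FDR = 0.100). It read 101, 100 and 109 CPM there, above each untreated MM1R library. CDKN2A in MM1R cells gave -0.49 (SE 0.31, FDR = 0.348), or -0.22 (FDR = 0.745) without the library that stood apart, and it was called (-0.51, FDR = 0.0439) with no filter on low counts. MTAP was lower than untreated in all 6 passages, by 0.07 to 0.30 on the log2 scale (FDR = 0.602 in MM1R and 0.357 in MM1S cells).

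Around the inhibitors, 3 of the 29 tested genes of the G1/S machinery were called with RSL3 in MM1R cells (10.3%, against 3.36% of all genes) and 1 in MM1S cells (3.45%, against 3.67%). Of them 2 rose in MM1R cells, the INK4 target kinase gene CDK6 (0.58, FDR = 0.0368) and the E2F repressor gene E2F6 (0.46, FDR = 0.0253), and the cyclin E gene CCNE1 fell (-0.80, FDR = 0.0432). In MM1S cells E2F6 alone was called (0.67, FDR = 0.00406). The list had a median log2 change of -0.12 in MM1R and -0.11 in MM1S cells, next to 0.00 over all genes. Averaged over the lines, 3 genes rose and 8 fell, or 37.9% against 15.5% of all genes. The risers were E2F6 (0.56), CDK6 (0.44) and E2F3 (0.28), and the 4 that fell most were E2F8 (-0.85), CCNE1 (-0.77), E2F5 (-0.60) and SKP2 (-0.58), the last encoding the ubiquitin ligase subunit that targets p27. Under RSL3, TFDP2, a dimerization partner of E2F proteins, was higher in MM1R than in MM1S cells (0.63), while E2F7 (-0.94) and CDK2, the kinase that p21 and p27 bind (-0.66), were lower. The genes called between the lines were 10.3% of the list under RSL3, against 9.17% of all genes. TFDP2 alone was called between the lines under Fer-1 + RSL3 (0.49, FDR = 0.0113), or 3.45% against 2.94%. The share of all genes was 4.82% without the MM1R library that stood apart.

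Of 20 tested genes of the p53 and ARF pathway, 4 rose in MM1R cells and the same 4 in MM1S cells, or 20% in each line against 3.36% and 3.67% of all genes. They were the pro-apoptotic genes PMAIP1 (log2 change 2.02 in MM1R and 1.59 in MM1S cells) and BBC3 (2.00 and 1.89), the growth arrest gene GADD45A (0.89 and 1.40) and TP53INP1 (0.80 and 0.67), with medians over the list of 0.18 and 0.08. BBC3 spread widely under RSL3 (62.3 ± 34.8 CPM in MM1R and 49.2 ± 36.7 CPM in MM1S cells, SD, n = 3). So did PMAIP1 (31.7 ± 13.7 and 55.8 ± 29.9 CPM). In the average of the lines the death receptor gene FAS (0.52) rose as well and ZMAT3 fell (-0.63). There 30% of the list was called against 15.5% of all genes. Between the lines under RSL3, MDM2, the ubiquitin ligase that ARF binds, was higher in MM1R cells (0.93, FDR = 0.0205), with BTG2 (0.85), ZMAT3 (0.75), TNFRSF10B (0.51) and DDB2 (0.49), and none was lower. Those called were 25% of the list against 9.17% of all genes. Under Fer-1 + RSL3, MDM2 (1.11, FDR = 0.0165), BTG2 (0.59) and TNFRSF10B (0.57) were called in the same direction, or 15% against 2.94%.

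Among 20 tested regulators of p21 and p27 transcription, ATF3 (4.55 and 4.08), KLF6 (2.36 and 1.71) and CEBPB (1.72 and 1.71) rose with RSL3 in MM1R and MM1S cells, and RUNX1 rose in MM1R cells (1.06, FDR = 0.00616). The called genes were 20% of the list in MM1R and 15% in MM1S cells, against 3.36% and 3.67% of all genes. ATF3 and KLF6 had a wide spread under RSL3 in both lines (SD, n = 3). In MM1R cells they read 646 ± 583 and 784 ± 562 CPM, and in MM1S cells 785 ± 930 and 603 ± 458 CPM. The list had medians of 0.32 and 0.07. KLF4 rose in the average of the lines (1.72), where 30% of the list was called against 15.5% of all genes. KLF4 also spread widely under RSL3 (4.81 ± 2.53 CPM in MM1R and 6.38 ± 6.05 CPM in MM1S cells). The glucocorticoid receptor gene NR3C1 was lower in MM1R than in MM1S cells under RSL3 (-3.35, FDR = 0.000913) and under Fer-1 + RSL3 (-2.08, FDR = 0.0304), and FOXO1 was lower under RSL3 (-0.88, FDR = 0.0392). The called genes were 10% and 5% of the list in these treatments, against 9.17% and 2.94% of all genes. Without the MM1R library that stood apart, 4.82% of all genes were called under Fer-1 + RSL3. NR3C1 also spread widely in MM1S cells under RSL3 (197 ± 169 CPM).

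Among 18 tested genes of Polycomb and 9p21 repression, ID2 (1.80), KDM6A (0.90) and RBBP7 (0.41) were higher in MM1R cells under RSL3 and CBX6 was lower (-0.50), or 22.2% of the list against 9.17% of all genes. Under Fer-1 + RSL3 the histone H3 demethylase gene KDM6A was higher (0.77) and CBX2 lower (-2.21), or 11.1% against 2.94%. CBX2 was near the floor there, at 0.243 ± 0.196 CPM in MM1R and 1.15 ± 0.282 CPM in MM1S cells. It passed the filter through MM1S cells, so that the limit given for CDKN2B-AS1 holds for its call too. With RSL3, CBX6 fell in MM1R cells (-0.55, FDR = 0.0336), or 5.56% of the list against 3.36% of all genes. In the average of the lines BMI1 (-0.85), CBX7 (-0.47), CBX6 (-0.42) and KDM2B (-0.26) fell and KDM6A rose (0.47), or 27.8% against 15.5%. BMI1 and CBX7 belong to the Polycomb repressive complex known for silencing CDKN2A.

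Of 17 tested genes of methionine salvage and the PRMT5 complex, AMD1, which encodes a decarboxylase of polyamine synthesis, fell with RSL3 in MM1R cells (-0.68, FDR = 0.0472). That call was 5.88% of the list against 3.36% of all genes. In the average, where 15.5% of all genes were called, 1 of the 17 rose and 2 fell, a share close to that of all genes. ODC1 rose (0.47), while AMD1 (-0.61) and MRI1 (-0.31), an enzyme gene of the pathway that MTAP opens, fell. SMS, the spermine synthase gene, was lower in MM1R than in MM1S cells under RSL3 (-0.57, FDR = 0.0357), or 5.88% against 9.17%. Of the 9p21 neighbours, MLLT3 fell with RSL3 in MM1S cells (-0.46, FDR = 0.0457) and in the average (-0.32), where C9orf72 (1.05) and PLAA (0.31) rose. Those called were 6.25% of the list in MM1S cells and 18.8% in the average, against 3.67% and 15.5% of all genes. With Fer-1 + RSL3 against RSL3 alone no gene of these lists was called in either line, and BTG2 alone was called in the average (-0.54, FDR = 0.0150), a call lost without the library that stood apart (-0.52, FDR = 0.0539). The calls of the genes named above between the lines under Fer-1 + RSL3 were made without that library too, with NR3C1 at -2.85 and CBX2 at -3.07. The limit on the CBX2 call holds there as well.

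The genes most like CDKN2A over the 18 libraries, by Pearson correlation of log2 CPM, were CTAG2 (r = 0.997), ADGRE5 (0.994), MAGEA6 (0.993), NLRP11 (0.992) and LOC105373367 (0.990), and the most opposite were CMTR1 (-0.970), NLRP5 (-0.968) and MYH8 (-0.968). These values rest on the split between the lines. Within the 9 MM1R libraries, which include the library that stood apart, CTAG2 gave 0.963 and the 4 others like it 0.686 to 0.852. For CDKN1A the most alike were SNHG29 (0.932), LOC105378482 (0.929), VIM (0.925), EEF2 (0.917) and EEF1A1 (0.913), and the most opposite CIITA (-0.955), LMO7 (-0.923) and RIBC2 (-0.915). The CDKN1A values held within each line at 0.513 to 0.757 in MM1R and 0.849 to 0.919 in MM1S cells for the genes most alike. The points share passages and library scaling, and the correlations are descriptions only.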

How the data were processed

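Total RNA of 18 libraries was sequenced, and the authors aligned reads with STAR 2.7.3a after FastQC 0.11.5 (hg19) and used DESeq2. The counting tool, annotation and strand setting are not given in the sources used here. The deposited tables hold raw counts per gene and a normalized signal, the authors' count divided by a size factor, for 29553 genes.

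Members and gene lists were chosen with earlier results of these data known. Raw counts were fitted with edgeR 4.0.16 (R 4.3.3; filterByExpr with a minimum count of 10, TMM, 6 group means, quasi-likelihood test), and p-values were adjusted by Benjamini-Hochberg over 14281 genes (FDR, threshold 0.05). Fold changes are on the log2 scale. DESeq2 1.42.0, limma 3.58.1 on log2(normalized value + 1), other scalings, other filters, the groups compared only and leaving out each library were alternatives. The fit was tested on simulated data. P-values measure the spread between passages of 1 line each.

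By the labels, replicate numbers are passages and pair libraries within a line. As a check, each library's deviation from its group mean was correlated with that of the same passage in another treatment, over 9 pairs a line. The median r was 0.250 for MM1R, ranging from 0.0338 to 0.516, whereas MM1S had a median of 0.416 and a range of 0.216 to 0.681. Passage as a block was an alternative.

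Every member is named, with, for RSL3 against untreated, Fer-1 + RSL3 against RSL3 and the lines, every called gene (except an item not reported here) of a list with at most 8 calls in a comparison and otherwise the 4 largest changes in each direction, all 9p21 neighbours over 1 CPM, and the 5 genes most like and 3 most opposite to CDKN2A and CDKN1A. Intervals of ratios are exact binomial ones and cover counting error only. Values of different genes are compared per kb of the annotated transcript. Sequences come from RefSeq.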

Additional observations from a re-analysis of the deposited data

How the results depend on the processing

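The calls of CDKN2A and CDKN2B between the lines under either treatment were made in every alternative that was run for them. The block was not run for them, since the lines share no passage. Every alternative started from the same very low MM1S counts of both genes, so that a call was to be expected in each. The agreement of the alternatives is therefore no separate evidence for these calls. With no call in the other comparisons, alternatives could only add calls. With the passage as a replicate block, 1 member was called for RSL3 in MM1R cells (CDKN1B), 1 in MM1S cells (MTAP) and 1 averaged over the lines (MTAP). Over all genes it called 13.1%, 13.3% and 30.4% there. The block changed no other call. DESeq2 called 1 for RSL3 in MM1R cells (CDKN1B) and added CDKN1A between the lines in both treatments, as did the fit with no filter on low counts, while the fit of the groups compared only added it under Fer-1 + RSL3. With no filter on low counts, 1 was called (CDKN1A) for RSL3 in MM1S cells and averaged over the lines, 1 (CDKN1A) for Fer-1 + RSL3 against RSL3 in MM1S cells and in the average, and 1 (CDKN2A) for Fer-1 + RSL3 against untreated MM1R cells. That setting took the calls over all genes from 480 to 1014 in MM1R and from 524 to 1214 in MM1S cells for RSL3. The fit of the groups compared only called 510 of 13325 genes in MM1R and 3 of 13140 in MM1S cells for RSL3. Other scalings, a minimum count of 50, a log2 threshold of 1 and limma moved no count of members beyond 1.5 times.

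Leaving out 1 library at a time gave 0 to 1 called members for RSL3 in MM1R cells, 0 to 1 in MM1S cells, 0 to 2 in the average and 2 to 3 between the lines under either treatment. The 2 in the average were MTAP and CDKN1B without MM1R RSL3 replicate 2, and MTAP and CDKN1C (log2 change 1.56, FDR = 0.0337) without MM1S RSL3 replicate 3. The latter library held 2 CDKN1C reads, the fewest of the RSL3 libraries. CDKN1C reached the minimum count of 10 only in RSL3 libraries, so it entered that test through the group where it was high. Nothing is read from its call. The untreated log2 ratio of CDKN2A ranged from 8.83 (without MM1S untreated replicate 1) to 10.59 (without MM1S untreated replicate 3).

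Changes of size near 0 turned sign when 1 library was left out. For RSL3 these were CDKN2A in MM1R cells (-0.16 to 0.24) and CDKN2D in MM1S cells (-0.37 to 0.17) and in the average (-0.0323 to 0.24). For Fer-1 + RSL3 against RSL3 they were MTAP (-0.049 to 0.18), CDKN1B (-0.17 to 0.022) and CDKN2D (-0.20 to 0.077) in MM1R cells, MTAP (-0.056 to 0.24) and CDKN2D (-0.26 to 0.11) in MM1S cells, and CDKN2D in the average (-0.16 to 0.027). Against untreated MM1S cells they were CDKN1A (-0.043 to 0.56), CDKN1B (-0.027 to 0.080) and CDKN2D (-0.41 to 0.13). Between the lines they were CDKN1B under RSL3 (-0.11 to 0.072), CDKN2D under Fer-1 + RSL3 (-0.018 to 0.34) and the difference in the RSL3 response of MTAP (-0.0070 to 0.29). None of these was called in any of those fits.

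CDKN1C, left out with all libraries, passed the filter where 1 library was left out. Depth limits CDKN1C, CDKN2C and, in MM1S cells, CDKN2A and CDKN2B, which had at most 5 reads in an MM1S library, so that a change with treatment was not detectable there. The causes of the added calls were not tested.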
